A study of Mus musculus with 4 samples.

Results

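To describe how genes under genomic imprinting were expressed in muscle precursor cells without Tet2, 42 imprinted genes were read from a table of 24445 genes. The genes were chosen by name, from imprinted domains of the mouse genome, and all 42 names were present in the table. Bulk RNA sequencing had been done on 4 libraries of cultured primary myoblasts, 2 from wild type (WT) and 2 from Tet2 KO animals, both on the C57BL/6 strain. The Tet2 KO lacks exon 3 of Tet2 and is constitutive, that is, not limited to 1 cell type, per the study's results. Its methods state 8 to 10 week old male mice unless otherwise noted. In both groups, satellite cells, which are the resident stem cells of muscle, had been sorted from hindlimb as live (PI-) cells without CD45, CD11b, CD31 and Sca1 but with CD34 and Integrin a7, and grown on collagen for at least 3 days in proliferating medium, by which time they were MyoD+ myoblasts. The cells are therefore a cultured outgrowth of a sort, and not muscle fibres.

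An imprinted gene is transcribed mainly from the allele inherited from one parent. The choice of allele is set in the germline by DNA methylation at a control region, which is kept through the divisions of the body's cells, and one control region can direct several neighbouring genes, some from the maternal and some from the paternal chromosome. Tet2 is one of the dioxygenases that oxidise 5-methylcytosine, the methylated base itself, and many imprinted genes act on growth, H19, Igf2r and Cdkn1c being classical examples that restrain it. In muscle, IGF2 made by differentiating myoblasts acts back on the same cells, and H19 is an abundant RNA of embryonic muscle and cultured myoblasts.

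The table gave 1 FPKM value (fragments per kilobase of a transcript, scaled to 1000000 mapped fragments) for each gene in each group, with both libraries of the group combined. No spread between libraries stands beside any value, so whether a difference exceeds that spread was not tested, and neighbours in the order of levels cannot be told apart. Differences are given as log2((Tet2 KO FPKM + 1) / (WT FPKM + 1)), called the log2 ratio below, which understates the difference of genes with low values. A gene is called 2-fold or 1.5-fold higher or lower below by this log2 ratio, that is after 1 is added to each FPKM, and ratios of plain FPKM are named as such. Positive log2 ratios mean a higher value in Tet2 KO, and where a pair of FPKM values is given without group names, Tet2 KO comes first. The RNA values do not separate the parental alleles.

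The cells expressed myoblast genes in both groups, but other cell type markers differed between them. All 6 myoblast identity genes (Myod1, Myf5, Pax7, Cdh15, Des and Itga7) had log2 ratios slightly below 0, with a median of -0.10. All 8 muscle differentiation genes were lower in Tet2 KO, their summed level being 1072 FPKM against 2721 FPKM in WT. Of these, Mylpf, Acta1 and Myog had the highest means. By the log2 ratio Mylpf, Acta1, Myog, Myh3, Tnnt2, Tnnc2 and Tmem8c were at least 2-fold lower, and Ckm, at -0.93, was past 2-fold in plain FPKM only. All 10 leukocyte genes were higher in Tet2 KO, with a summed level of 475 FPKM against 120 FPKM, Lyz2, Ctss and Tyrobp having the highest means. By the log2 ratio 8 of them (Lyz2, Ctss, Tyrobp, Cd52, Fcer1g, Lcp1, Itgam and Ptprc) were at least 2-fold higher, while Cd68 (0.94) and Laptm5 (0.96) were past 2-fold in plain FPKM only. The defining leukocyte markers were present in both groups, Ptprc (CD45) at 5.67 FPKM in Tet2 KO against 1.36 FPKM in WT and Itgam (CD11b) at 10.1 FPKM and 2.09 FPKM. Of 7 fibroblast genes 6 reached a mean of 1 FPKM and all 6 had higher values in Tet2 KO (median log2 ratio 0.25). The 7 genes had a summed level of 473 FPKM against 438 FPKM. The 3 with the highest means were Col3a1, Dcn and Ly6a. Ly6a encodes the Sca1 antigen excluded in the sort and stood at 288 FPKM in Tet2 KO against 278 FPKM in WT. Its log2 ratio of 0.05 was the lowest of the 6. Dcn had the highest, 0.95, at 7.04 FPKM and 3.15 FPKM, past 2-fold in plain FPKM only. The 5 endothelial genes summed to 3.33 FPKM and 3.80 FPKM, Pecam1 alone reaching a mean of 1 FPKM, ahead of Kdr and Cdh5. Tet2 itself was at 5.79 FPKM in Tet2 KO against 6.64 FPKM in WT, values over the whole gene in which loss of a single exon is not separately visible. In RNA of bulk cells, fewer cells of a type and less RNA per cell cannot be told apart. The part of these differences in the values of imprinted genes was not tested.

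Levels of the imprinted genes ran from 0 to 1740 FPKM. A mean of at least 1 FPKM over both groups was reached by 26 of the 42 genes and by 11692 genes of the table. H19, the long non-coding RNA that carries miR-675, was the most abundant, at 1408 FPKM in Tet2 KO against 1740 FPKM in WT, and ranked 40 and 18 among all genes of the table. It made up 58.2% of the summed FPKM of all 42 genes in Tet2 KO and 61.2% in WT. The next levels belonged to Cd81, a tetraspanin (215 FPKM and 250 FPKM), Gnas, the alpha subunit of the stimulatory G protein (192 FPKM and 203 FPKM), and Peg3, a zinc finger protein (185 FPKM and 164 FPKM). These 4 genes alone were at 100 FPKM or more in both groups. A further 7 genes lay from 20 to under 100 FPKM, 7 from 5 to under 20 FPKM and 8 from 1 to under 5 FPKM on average. The 42 genes together summed to 2419 FPKM in Tet2 KO against 2840 FPKM in WT, or 0.428% and 0.501% of the summed FPKM of each group. FPKM is scaled per length, so these levels can be set side by side between genes.

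**Figure D1:**
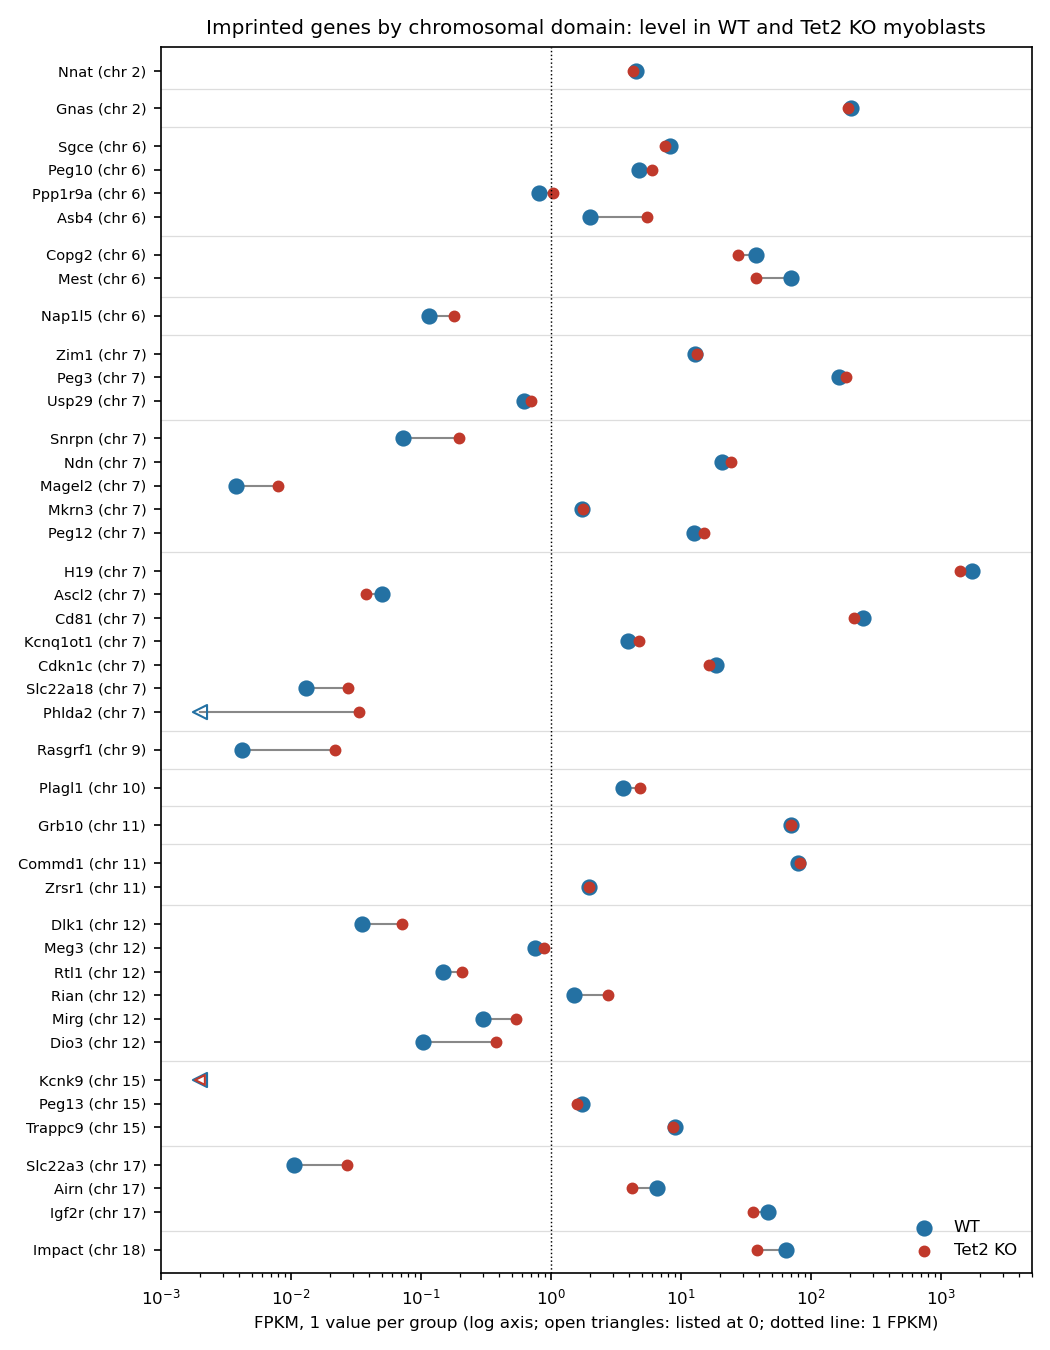
FPKM of the 42 imprinted genes in WT (large blue circles) and Tet2 KO (small red circles) on a log axis, 1 value per group, ordered by chromosome and with lines between domains. H19 lies furthest right at 1408 and 1740 FPKM, all 6 genes of the chromosome 12 domain have the Tet2 KO circle to the right, and 16 genes average under 1 FPKM.

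The log2 ratios of the expressed imprinted genes centred near 0. Of the 26 genes with a mean of at least 1 FPKM, 12 had a log2 ratio above 0 and 14 below 0, and the median was -0.03, beside -0.0044 over all 11692 genes. The share above 0 was 46.2%, beside 48.8% of all genes. The median of all 42 genes was 0.03, and that of the 10 expressed genes whose locus holds no other gene was 0.05, so its sign depended on which genes were taken. Fewer of the expressed genes lay close to 0 than in the whole table, with 9 of 26 (34.6%) within 0.1 of 0 on the log2 scale, beside 50.1% of all genes.

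Large differences were few. A value at least 2-fold higher in Tet2 KO was found for 1 of the 26 genes, Asb4, while 2.08% of all genes passed that mark. None was at least 2-fold lower, beside 1.21% of all genes. At 1.5-fold, Asb4 was higher, beside 3.72% of all genes, and 2 genes, Mest and Impact, were lower (7.69% of the 26, beside 2.89% of all genes). These counts depended on the 1 added to each FPKM. In plain FPKM, Rian was also 1.5-fold higher, making 2 genes (beside 4.94% of all genes), and Airn was also 1.5-fold lower, making 3 (beside 4.01% of all genes). Because the scatter of log2 ratios narrows as levels increase, each gene was also placed among genes of its own FPKM band, a comparison added after the values were seen. The central 90% of genes ran from -0.55 to 0.97 in the band of 1 to 5 FPKM, from -0.39 to 0.34 at 5 to 20 FPKM, from -0.31 to 0.24 at 20 to 100 FPKM and from -0.26 to 0.28 at 100 FPKM and above. Asb4 lay above its band, as 5.01% of all genes did. Below their bands lay 6 genes (23.1%, beside 5.01% of all genes), namely Mest, Impact, Airn, Copg2, Igf2r and H19. Airn, with a mean of 5.35 FPKM, was just above the edge between 2 bands. Its log2 ratio of -0.52 would lie within the band of 1 to 5 FPKM. These 6 genes are not 6 separate loci, since Mest and Copg2 overlap each other and so do the loci of Airn and Igf2r. The muscle differentiation genes, with a median log2 ratio of -1.24, were lower in the same group, and their part in these 6 values was not tested.

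**Figure D2:**
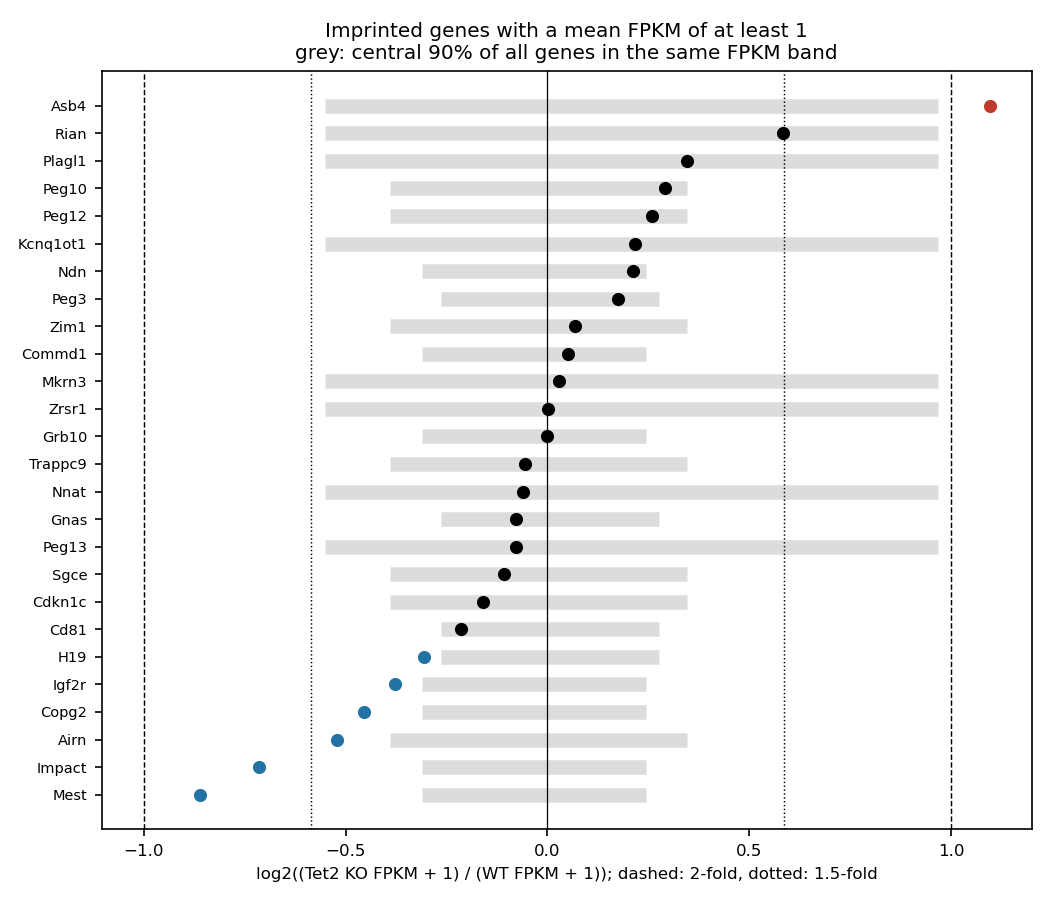
Log2 ratios (Tet2 KO over WT, 1 added to each FPKM) of the 26 imprinted genes with a mean of at least 1 FPKM, each point 1 gene, with the central 90% of all genes of the same FPKM band in grey. Asb4 (red) lies above its band and past the dashed 2-fold line at 1.10, 6 genes (blue) lie below their bands from -0.30 to -0.86, and the other genes lie within.

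**Figure D3:**
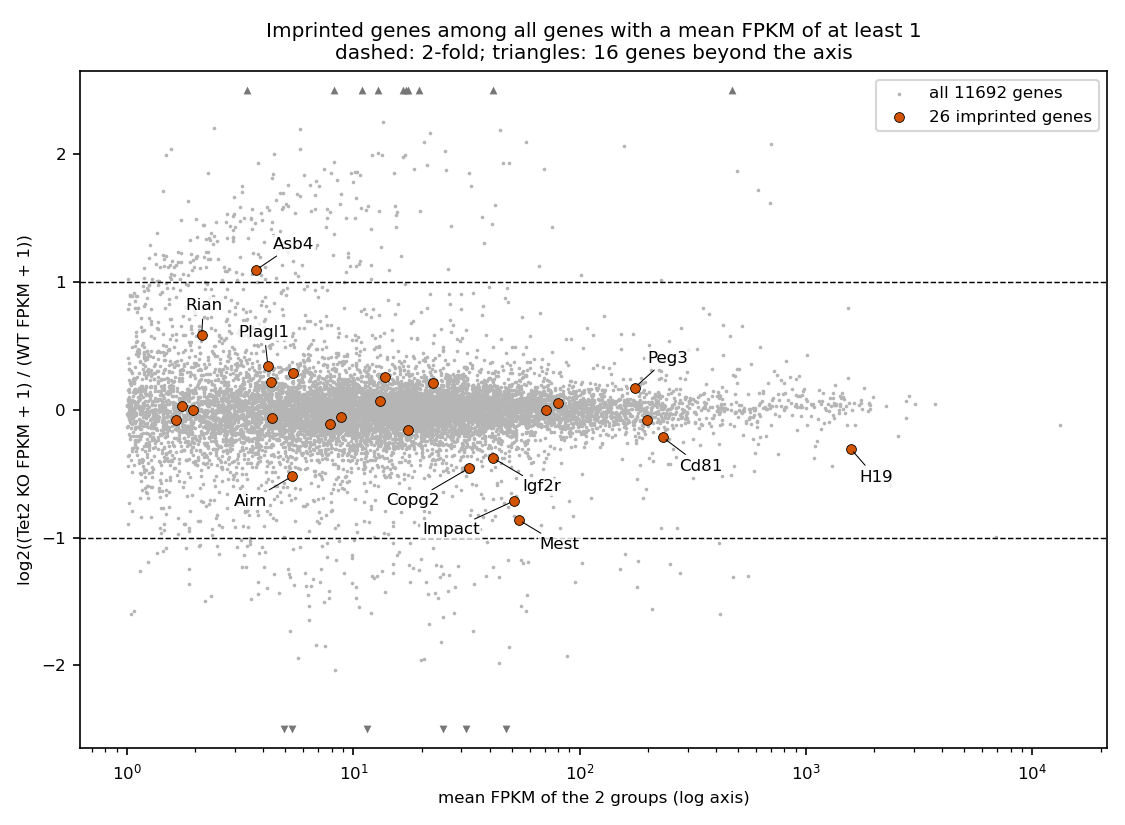
Log2 ratio against the mean FPKM of both groups (log axis) for all 11692 genes with a mean of at least 1 FPKM (grey) and the 26 imprinted genes (orange), with dashed lines at 2-fold and triangles for 16 genes beyond the axis. The imprinted genes lie among the grey points, Asb4 at 1.10 above the upper line and Mest, the lowest, at -0.86.

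The gene with the lowest log2 ratio was Mest, a paternally expressed gene for a protein of the hydrolase fold family. Mest was at 37.9 FPKM in Tet2 KO against 69.6 FPKM in WT, which was 1.84-fold higher in WT in plain FPKM, and its log2 ratio of -0.86 stood at the percentile of 1.64 among all genes. Its neighbour Copg2, a coatomer subunit of vesicle transport, was at 27.3 FPKM in Tet2 KO against 37.7 FPKM in WT, with a log2 ratio of -0.46. Both genes were lower in Tet2 KO, and Mest more so, the level of Mest being 1.85 times that of Copg2 in WT and 1.39 times in Tet2 KO. They lie on opposite strands of chromosome 6 and share 1 locus of the table, from 30683506 to 30846794 in mm9. Their exons overlap over 904 bases, 23.0% of the exonic length of Mest and 20.2% of that of Copg2 in the GENCODE vM1 annotation. The library kit does not keep the strand, so reads from the overlap could have come from either gene.

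Airn and Igf2r, the classical sense and antisense pair of chromosome 17, were also both lower. Igf2r, the receptor that clears the growth factor IGF2 from the cell surface and is expressed from the maternal allele, was at 35.9 FPKM in Tet2 KO against 46.9 FPKM in WT, a log2 ratio of -0.38. Airn, the paternally expressed non-coding RNA that runs antisense to Igf2r, was at 4.21 FPKM and 6.48 FPKM, a log2 ratio of -0.52 and a plain FPKM value 1.54-fold higher in WT. The level of Igf2r was 8.52 times that of Airn in Tet2 KO and 7.24 times in WT. The exons of the pair do not overlap in the annotation, but both were given the same locus, from 12875272 to 13061009 in mm9. The third member of this domain, Slc22a3, an organic cation transporter, was listed at 0.0269 FPKM and 0.0106 FPKM, so it was hardly detected in either group.

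Impact, a paternally expressed regulator of the kinase GCN2, had 38.4 FPKM in Tet2 KO against 63.6 FPKM in WT, a log2 ratio of -0.71. It is alone in its locus on chromosome 18, and was 1.66-fold higher in WT in plain FPKM. With Mest it was lower by at least 1.5-fold whether or not 1 was added to each FPKM.

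The distal chromosome 7 domain, which spans the H19 and Kcnq1 regions from 149761435 to 150688429 in mm9, was mixed. Of its 7 genes 3 had a higher and 4 a lower FPKM in Tet2 KO. H19 was lower with a log2 ratio of -0.30, which lay just beyond its band. Cd81 was lower at -0.21. Cdkn1c, the maternally expressed cyclin-dependent kinase inhibitor p57, was at 16.4 FPKM in Tet2 KO against 18.4 FPKM in WT, a log2 ratio of -0.16 that lay within its band. Kcnq1ot1, the paternally expressed antisense RNA of the Kcnq1 region, was higher in Tet2 KO, at 4.73 FPKM and 3.93 FPKM, with a log2 ratio of 0.22. Its host Kcnq1 was listed at 0.0189 FPKM and 0.0190 FPKM. Slc22a18, Phlda2 and Ascl2 were all at or under 0.0504 FPKM in both groups. The growth factor gene Igf2, which shares its control region with H19 and was not among the 42 genes, was at 38.3 FPKM in Tet2 KO against 60.8 FPKM in WT. H19 and Igf2, usually expressed from opposite alleles, were thus both lower in Tet2 KO. H19 stood at 36.7 times the level of Igf2 in Tet2 KO and 28.6 times in WT. The log2 ratio of Igf2 was -0.65, and its locus holds 3 genes. The muscle differentiation genes were lower in the same group, and their part in the H19 and Igf2 values was not tested.

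Asb4 was the gene with the highest log2 ratio. Asb4 encodes an ankyrin repeat and SOCS box protein of the ubiquitin ligase type and is maternally expressed. It was at 5.43 FPKM in Tet2 KO against 2.01 FPKM in WT, a 2.70-fold difference in FPKM and a log2 ratio of 1.10, at the percentile of 98.2 among all genes. The level was low, and a minimum mean of 5 FPKM removed the gene from the comparison. The other genes of its domain on chromosome 6, from 4624350 to 5383021 in mm9, did not follow it closely. Peg10, a paternally expressed gene derived from a retrotransposon, was at 6.03 FPKM and 4.74 FPKM, a log2 ratio of 0.29. Sgce, which encodes epsilon-sarcoglycan, a membrane protein of the dystrophin-associated complex, was at 7.54 FPKM and 8.20 FPKM, a log2 ratio of -0.11. Ppp1r9a, the actin-binding protein neurabin, was at 1.04 FPKM in Tet2 KO against 0.805 FPKM in WT. In the same region Tfpi2, a protease inhibitor, was at 3.22 FPKM in Tet2 KO against 1.19 FPKM in WT. The leukocyte genes, whose summed level was 3.95 times as high in Tet2 KO, were higher in the same group as Asb4, and the part of other cells in the Asb4 value was not tested.

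The chromosome 12 domain of Dlk1 and Dio3 was low in both groups. Only Rian, the non-coding host of C/D small nucleolar RNAs, averaged at least 1 FPKM, with 2.76 FPKM in Tet2 KO against 1.51 FPKM in WT. In plain FPKM it was 1.83-fold higher in Tet2 KO. Its log2 ratio was 0.58, just short of 1.5-fold and within the wide band of low genes, and it passed 1.5-fold with a smaller or no pseudocount (0.83 and 0.87), in TPM (0.68) and after median centring (0.59). All 6 genes had a higher FPKM in Tet2 KO. The other maternally expressed non-coding RNAs of the domain were Meg3, at 0.887 FPKM and 0.760 FPKM, and Mirg, which hosts miRNAs, at 0.537 FPKM and 0.299 FPKM. The paternally expressed coding genes were at or under 0.376 FPKM, with Dio3, the deiodinase that inactivates thyroid hormone, at 0.376 FPKM and 0.104 FPKM, Rtl1 at 0.208 FPKM and 0.148 FPKM, and Dlk1, a transmembrane protein of the Notch ligand type, at 0.0717 FPKM and 0.0351 FPKM. The whole domain summed to 4.84 FPKM in Tet2 KO against 2.86 FPKM in WT, from 110691033 to 111519307 in mm9.

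Both other domains of chromosome 7 had higher FPKM values in Tet2 KO for each gene, by small amounts for those averaging at least 1 FPKM. Snrpn and Magel2, far below that level, were past 2-fold higher in plain FPKM. In the Peg3 domain, Peg3 had a log2 ratio of 0.17 and its maternally expressed neighbour Zim1, a zinc finger gene, was at 13.4 FPKM in Tet2 KO against 12.7 FPKM in WT, a log2 ratio of 0.07. Usp29, a deubiquitinase gene that starts head to head with Peg3, was at 0.697 FPKM and 0.620 FPKM. In the domain from Snrpn to Peg12, Ndn, which encodes the MAGE family protein necdin, was at 24.2 FPKM and 20.7 FPKM with a log2 ratio of 0.21. Peg12, a gene of the Frat family, was at 15.1 FPKM and 12.5 FPKM, with a log2 ratio of 0.26, and Mkrn3, a makorin ring finger gene, was at 1.78 FPKM and 1.72 FPKM. Each of these log2 ratios lay within the band of its level. Magel2 was at or under 0.0080 FPKM in both groups. Snrpn was listed at 0.196 FPKM in Tet2 KO against 0.0727 FPKM in WT, while Snurf, the reading frame carried on the same transcript, was at 3.65 FPKM and 3.21 FPKM. The split of shared reads between Snurf and Snrpn is uncertain, so the Snrpn value alone does not give the output of that transcript.

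The remaining expressed genes were close to equal in both groups, apart from Plagl1. Plagl1, a paternally expressed zinc finger transcription factor of chromosome 10, was at 4.80 FPKM in Tet2 KO against 3.57 FPKM in WT, a log2 ratio of 0.34 within its band. Grb10, an adaptor of the insulin and growth factor receptors on chromosome 11, was at 70.6 FPKM in both groups, with a log2 ratio of -0.0011 whose sign turned when the values were rescaled to TPM or centred on the median of all genes. Commd1, which encodes a COMM domain protein, was at 81.5 FPKM and 78.7 FPKM, and the retrogene Zrsr1 inside it, related to a splicing factor, was at 1.95 FPKM in both groups. Gnas had a log2 ratio of -0.08. Nnat, a proteolipid gene of chromosome 2, was at 4.26 FPKM and 4.48 FPKM. On chromosome 15, Trappc9, a subunit of a vesicle trafficking complex, was at 8.65 FPKM and 9.02 FPKM, and Peg13, the non-coding RNA within it, at 1.58 FPKM and 1.72 FPKM. Kcnk9, a potassium channel gene of that domain, was listed at 0 in both groups.

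A mean of 1 FPKM was not reached by 16 of the 42 genes, and 12 of these stayed under 0.5 FPKM in both groups. Of the 16, 14 had a higher FPKM in Tet2 KO, 1 (Ascl2, a bHLH transcription factor) a lower one, and 1 was listed at 0 in both. Among all genes of the table under that mean and not at 0 in both groups, 4012 of 8704 (46.1%) were higher in Tet2 KO. The number of fragments behind these low values is unknown. Chromosome 12 holds 5 of the 14 genes, all in 1 domain, and chromosome 7 another 5, so these are not 14 separate observations.

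Split by the allele that is usually expressed, each class had a median near 0. Of 14 maternally expressed genes 6 were expressed here, 3 above and 3 below 0, with a median log2 ratio of -0.05. Of 22 paternally expressed genes 14 were expressed, 8 above and 6 below 0, with a median of 0.02. The remaining 6 genes (Copg2, Gnas, Cd81, Grb10, Commd1 and Trappc9), whose imprinting depends on the tissue or the transcript, were all expressed, 1 above and 5 below 0, with a median of -0.07. The extremes of the list came from different classes, Asb4 from the maternal and Mest from the paternal one.

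Log2 ratios of further imprinted genes and their neighbours ran from -0.92 to 0.95. Of this second list of 46 genes, 43 were in the table and 30 reached a mean of 1 FPKM, with a median log2 ratio of -0.03, 13 above and 17 below 0. By the log2 ratio none was 2-fold higher or lower, beside 2.08% and 1.21% of all genes. In plain FPKM 2 were 2-fold higher (Tfpi2 and Nespas) and 1 was 2-fold lower (Cobl). The share of all genes was not computed for these plain FPKM counts. At 1.5-fold by the log2 ratio, 2 of the 30 were higher, beside 3.72% of all genes. They were Tfpi2 and Nespas, the transcript antisense to Nesp at the Gnas locus (4.48 FPKM in Tet2 KO against 2.23 FPKM in WT). Lower by 1.5-fold on that scale were 5 of the 30, beside 2.89% of all genes: Cobl, Gatm, Ddc, Igf2 and Zdbf2. The same 5 genes lay below the central 90% of their FPKM bands and 0 above, beside 5.01% of all genes on each side. Gatm, which catalyses the first step of creatine synthesis, was at 27.8 FPKM in Tet2 KO against 48.6 FPKM in WT, a log2 ratio of -0.78. Cobl, an actin nucleator that neighbours Grb10, was at 1.51 FPKM and 3.73 FPKM, and Ddc, the decarboxylase on the other side of Grb10, at 2.58 FPKM and 4.92 FPKM. Grb10 itself lay between these 2 lower genes with equal values. The 3 genes of the second list with the highest means, Nap1l4 (116 FPKM and 119 FPKM), Ube3a (54.1 FPKM and 57.3 FPKM) and Igf2, included only Igf2 among the lower genes.

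**Figure D4:**
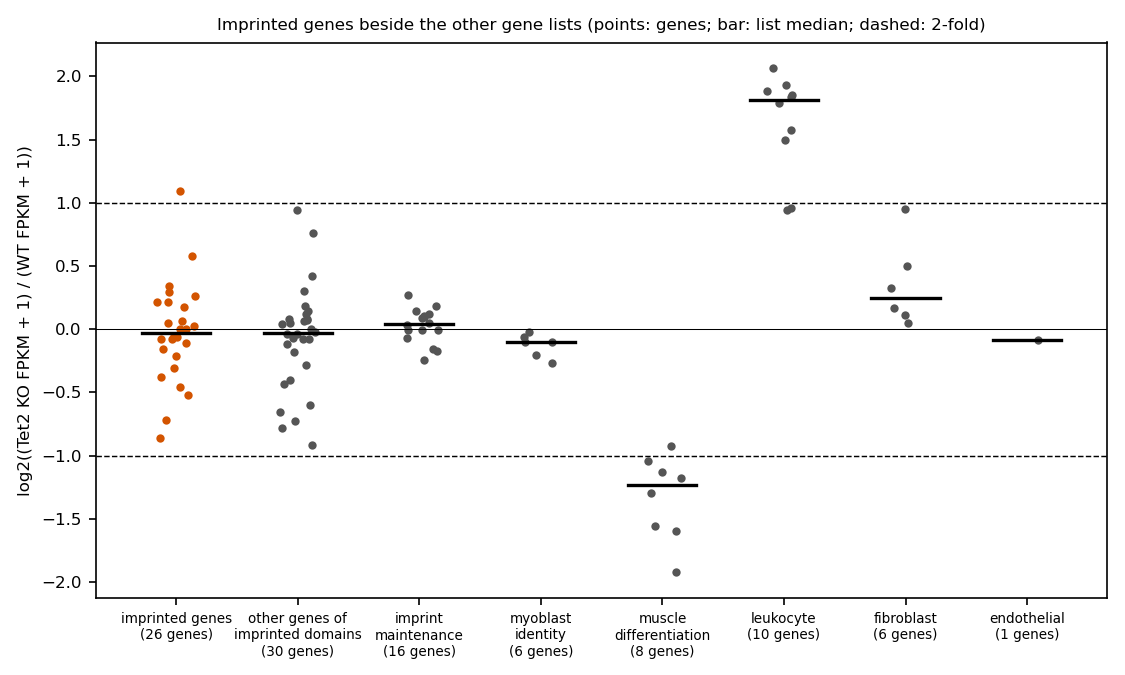
Log2 ratios (Tet2 KO over WT, 1 added to each FPKM) of genes with a mean of at least 1 FPKM in the imprinted list (orange) and 7 other lists (grey), each point 1 gene and each bar the list median. The imprinted list (-0.03), the other genes of imprinted domains (-0.03) and the imprint maintenance genes (0.04) centre near 0, while the muscle differentiation genes lie at -1.24 and the leukocyte genes at 1.81.

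Sequences around annotated starts are shown for the 2 expressed genes with the highest log2 ratios, Asb4 and Rian. Those of Mest, Airn, Copg2 and Igf2r, which were 4 of the 6 genes below their bands, are shown as well. The CpG dinucleotide, capitalised here, is the site that DNA methylation marks and Tet2 acts on. Whether these starts are promoters in use in these cells was not tested. RefSeq windows of build GRCm38.p6, from 250 bases before to 50 bases after a start, were at hand for 33 of the 42 genes, 46 windows in all. The windows below run 5′ to 3′ on the strand of the gene. Those of Asb4 (chr6:5390160-5390459), Rian (chr12:109603695-109603994), Mest (chr6:30737800-30738099) and Airn (chr17:12741061-12741360) lie on the plus strand, and those of Copg2 (chr6:30896745-30897044) and Igf2r (chr17:12769657-12769956) on the minus strand. Where a gene had several windows, the one with the most CpG is shown.
Asb4: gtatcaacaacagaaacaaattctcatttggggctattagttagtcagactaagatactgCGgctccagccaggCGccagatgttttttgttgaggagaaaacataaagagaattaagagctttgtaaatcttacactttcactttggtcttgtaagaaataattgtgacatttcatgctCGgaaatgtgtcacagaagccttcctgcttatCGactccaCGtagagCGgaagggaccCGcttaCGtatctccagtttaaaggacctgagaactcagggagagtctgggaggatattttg
Rian: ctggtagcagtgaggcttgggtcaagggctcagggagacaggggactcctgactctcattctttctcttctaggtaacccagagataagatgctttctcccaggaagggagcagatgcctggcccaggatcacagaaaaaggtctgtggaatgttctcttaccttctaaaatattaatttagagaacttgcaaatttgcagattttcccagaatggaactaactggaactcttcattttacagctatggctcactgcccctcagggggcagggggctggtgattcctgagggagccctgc
Mest: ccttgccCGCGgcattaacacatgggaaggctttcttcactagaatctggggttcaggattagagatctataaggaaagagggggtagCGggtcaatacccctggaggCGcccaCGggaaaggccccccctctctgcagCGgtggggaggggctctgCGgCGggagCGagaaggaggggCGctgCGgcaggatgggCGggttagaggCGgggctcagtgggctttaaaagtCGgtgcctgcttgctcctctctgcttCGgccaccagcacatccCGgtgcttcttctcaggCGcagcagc
Airn: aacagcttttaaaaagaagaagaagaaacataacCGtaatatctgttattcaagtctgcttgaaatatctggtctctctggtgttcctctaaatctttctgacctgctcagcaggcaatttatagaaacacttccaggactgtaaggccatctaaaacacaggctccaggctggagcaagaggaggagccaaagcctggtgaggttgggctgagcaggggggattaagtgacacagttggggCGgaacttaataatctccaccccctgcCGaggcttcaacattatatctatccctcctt
Copg2: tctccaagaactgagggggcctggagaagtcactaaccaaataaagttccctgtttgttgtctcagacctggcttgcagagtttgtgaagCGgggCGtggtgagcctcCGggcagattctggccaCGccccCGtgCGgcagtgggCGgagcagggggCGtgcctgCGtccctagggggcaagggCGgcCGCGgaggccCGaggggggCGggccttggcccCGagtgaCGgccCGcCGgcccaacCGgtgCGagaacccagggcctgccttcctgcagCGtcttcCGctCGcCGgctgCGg
Igf2r: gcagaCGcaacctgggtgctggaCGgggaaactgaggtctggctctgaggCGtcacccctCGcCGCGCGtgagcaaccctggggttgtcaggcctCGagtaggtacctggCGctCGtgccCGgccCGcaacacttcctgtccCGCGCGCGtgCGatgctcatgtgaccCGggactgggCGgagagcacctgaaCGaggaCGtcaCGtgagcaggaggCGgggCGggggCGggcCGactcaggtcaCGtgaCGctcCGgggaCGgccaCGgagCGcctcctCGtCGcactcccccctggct

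The Asb4 window held 8 CpG and the Rian window none. The Mest window held 17 CpG, the Airn window 3, the Copg2 window 25 and the Igf2r window 34. The windows shown of genes below their bands thus ranged from 3 to 34 CpG, with the antisense pair Airn and Igf2r at the ends of that range. Over the 46 windows the median was 14 CpG, beside 7 over all 32851 windows of the mouse set. The hexamer TGCCGC, which the imprint keeper ZFP57 binds when methylated, was searched on both strands and found in 11 of the 46 windows (23.9%), beside 11.6% of all windows, and occurred 2 times in the Mest window and 1 time in the Copg2 window, with no match in the other windows shown. This hexamer itself contains a CpG. The E box CAGCTG, a palindrome that MyoD can bind, was in 6 windows (13.04%), beside 16.3% of all windows. Overlapping windows of 1 gene and the head to head windows of Peg3 and Usp29 share bases. A match of letters is a description and not a binding site, and methylation was not measured in these libraries.

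Several of the non-coding members, and the coding gene Mest, are miRNA hosts, and some mature products are shown because they are what these transcripts carry. The table listed 24 miRNA hairpin genes within loci of the 42 genes, of which 10 lay with Mirg, 7 with Rtl1, 3 with Rian and 1 each with H19, Meg3, Usp29 and the Mest and Copg2 locus. A shared locus does not make a gene the host. Rtl1 lies on the minus strand, and the mature sequences of its locus lie on the plus strand, except those of Mir3071. All 24 were listed at 0 in both groups. Libraries of long RNA do not capture mature miRNAs, so these zeros do not give the miRNA level. Both RefSeq mature sequences from the loci of H19 and Mest are given with the seed, bases 2 to 8, in capitals, followed by 1 of the 6 from the Rian locus and by a pair from Mirg that has the same seed.
miR-675-5p: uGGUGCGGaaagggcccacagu
miR-675-3p: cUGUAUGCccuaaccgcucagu
miR-335-5p: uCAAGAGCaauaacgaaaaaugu
miR-335-3p: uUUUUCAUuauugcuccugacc
miR-370-3p: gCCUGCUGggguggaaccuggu
miR-453: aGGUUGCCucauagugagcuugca
miR-496a-5p: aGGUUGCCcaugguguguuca

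The arms of miR-675 come from H19, those of miR-335 from an intron of Mest and miR-370-3p from the Rian locus, so the hosts of the first 4 sequences were lower and the host of the fifth higher in Tet2 KO. The last 2 sequences share the seed GGUUGCC.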

How the data were processed

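Bulk RNA was sequenced from primary myoblasts of WT (2 libraries) and Tet2 KO mice (2 libraries), prepared with the TruSeq RNA Library Preparation Kit v2. Per the study's methods and the submitters' processing notes, the authors checked reads with FastQC, trimmed and filtered them, aligned pairs to mm9 with TopHat2 2.0.13 and computed expression with Cuffdiff 2.2.1. The gene annotation is not given in the sources used here. The deposited table holds 1 FPKM per gene and group. Its other columns (the authors' own log2 fold change, statistic, p-value, q-value and verdict) were not used. Depth and per-library values were not at hand, so no test, standard deviation or interval was computed.

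Log2 ratios used a pseudocount of 1. Genes needed an average FPKM of 1 or more, and were called at 2-fold on that scale. Other pseudocounts, filters, scalings and a fold of 1.5 were alternatives. The 42 genes and all lists were chosen with earlier results of these data known. Genes of the 42 that reached the filter are named with their values, lower ones by range or, from 0.5 FPKM, by value. From the other lists, genes past 2-fold and the 3 with the highest mean are named. Further genes were named after their values were seen. Members under 3 Mb apart formed 1 domain. Positions are in mm9 as the authors' table has them, made 1-based. Exons and strands came from GENCODE vM1, which held 40 of the 42 genes, and sequences from RefSeq, GRCm38.p6. The script was tested on simulated data. Python 3.11.15, numpy 2.4.6, pandas 2.3.3 and matplotlib 3.10.9 were used.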

Additional observations from a re-analysis of the deposited data

How the results depend on the processing

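No paired analysis was possible because the table holds 1 value per group, which also left no library to leave out. With a minimum mean of 5 FPKM instead of 1, 18 of the 42 genes remained in the comparison and 0 were at least 2-fold higher, since Asb4 was removed. At 1.5-fold 2 genes were lower in place of 0, and 6 lay below the central 90% of their FPKM band, an alternative chosen after the values were seen. The 2-fold counts, 1 higher and 0 lower, stayed at those numbers with a pseudocount of 0.1, no pseudocount, no filter, TPM and median centring. Settings changed 1 at a time, so genes under the filter were compared only with 1 added, where they could hardly reach 2-fold. In plain FPKM, Rasgrf1, Dio3, Snrpn, Slc22a3, Slc22a18, Magel2 and Dlk1 were past 2-fold higher, all at or under 0.376 FPKM. Phlda2 was listed at 0 in WT. The 1.5-fold counts did not, since Rian made 2 genes higher with either of those pseudocounts, TPM or median centring, and Airn made 3 lower with either of those pseudocounts. Of the other genes of imprinted domains, 1 was 2-fold higher with a pseudocount of 0.1 or after TPM rescaling and 2 with no pseudocount or at 1.5-fold, and 1 was 2-fold lower under each of the first 3 settings and 5 at 1.5-fold. The Asb4 log2 ratio was 1.39 with a pseudocount of 0.1, 1.43 with none and 1.22 in TPM, that of Rian 0.83, 0.87 and 0.68 under the same settings, and that of Airn -0.61 with a pseudocount of 0.1 and -0.62 with none. The median of the 26 genes ranged from -0.0551 to -0.0011 when 1 gene was removed at a time and was -0.09 at a minimum of 5 FPKM, 0.03 without a filter and 0.05 over genes alone in their locus. Rescaling moved the median of all genes by at most 0.0044. The sign of a single gene turned for Grb10 only, under TPM and median centring. No value here has an error, and 23 of the 42 genes share a locus with another gene, where reads of unstranded libraries cannot always be assigned.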

Other observations

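RNA levels of the expressed genes that keep or remove imprints differed little between the groups, and Ezh2 alone lay outside its FPKM band. Of 19 genes 16 reached a mean of 1 FPKM, and none of the 16 was 1.5-fold higher or lower. Their median log2 ratio was 0.04, with 9 above and 7 below 0. The 16 include Tet2 itself, at 5.79 FPKM in Tet2 KO against 6.64 FPKM in WT. That value covers the whole gene and does not show the loss of exon 3. Trim28, the co-repressor that ZFP57 recruits, was at 205 FPKM in Tet2 KO against 206 FPKM in WT, Uhrf1, which brings the maintenance methyltransferase to replicated DNA, at 134 FPKM and 121 FPKM, and Dnmt1, that methyltransferase, at 89.1 FPKM and 82.8 FPKM. Zfp57, best known from germ cells and embryonic stem cells, was at 13.1 FPKM and 14.6 FPKM, so it was detected in these cultures. Ctcf, the insulator protein that binds the unmethylated control region of H19, was at 36.6 FPKM and 33.6 FPKM. Ezh2, the methyltransferase of Polycomb complex PRC2, had the highest log2 ratio, 0.27, at 34.2 FPKM and 28.2 FPKM. It lay just above the central 90% of genes at 20 to 100 FPKM, which ended at 0.24, as 5.01% of all genes lay above their bands. Dnmt3a, a de novo methyltransferase, had the lowest, -0.24, at 2.34 FPKM and 2.96 FPKM. Tet3 was at 3.70 FPKM and 3.39 FPKM. Tet1 and Dnmt3l averaged under 1 FPKM, Tet1 at 0.364 FPKM and 0.484 FPKM and Dnmt3l at 0.623 FPKM and 0.191 FPKM. Dnmt3l was thus 3.26 times as high in Tet2 KO in plain FPKM, at a low level. Dppa3 was listed at 0 in both groups.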
